A study of Mus musculus with 3 samples.

Results

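Osteoclast genes and the signals of the RANK-CSF1 axis were followed in RNA from embryonic skull mesenchyme in which beta-catenin had been altered. The set comprised 9 of the 43280 genes listed in each count table, taken by symbol: the osteoclast effectors Ctsk, Acp5, Ocstamp and Atp6v0d2, the receptor Tnfrsf11a and the factor Nfatc1, and the mesenchymal signals Tnfsf11, Tnfrsf11b and Csf1. All 9 symbols were found, and 5 of them (Ctsk, Acp5, Atp6v0d2, Nfatc1 and Csf1) reached a mean of at least 5 CPM (counts scaled to library size) over the libraries, the level above which a gene is called measured here. The samples were primary cells of skeletal mesenchyme from mouse embryos at E15.5, described by the series as calvarial, with 1 polyA RNA library for each of 3 genotypes. The library called dTF-cKO was beta-catenin fx/dm with Dermo1-Cre, the library called cKO was beta-catenin fx/fx with Dermo1-Cre, and the control was beta-catenin fx/fx with no Cre named. All 3 therefore carried at least 1 floxed (fx) beta-catenin allele, and no fx/dm library without Cre was among them. The labels do not define dm. Dermo1 is another name of Twist2, whose locus drives this Cre in mesenchyme. The labels do not say how many embryos each library came from. Because each genotype had 1 library, differences have no replicate check, genotype could not be tested, and every interval below covers counting error only.

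Osteoclasts are the cells that dissolve bone. They form when precursors of the monocyte and macrophage lineage fuse, whereas the cells targeted by Dermo1-Cre are mesenchymal. A pair of signals made largely by mesenchymal cells drive this step: CSF1, which keeps the precursors alive, and RANKL (the product of Tnfsf11), which binds RANK (Tnfrsf11a) on the precursor and leads to the induction of the transcription factor NFATc1. Osteoprotegerin (Tnfrsf11b) is a secreted decoy receptor that captures RANKL, and in osteoblasts of mice its gene is a known target of beta-catenin. NFATc1, with PU.1, MITF and AP-1 factors, switches on the genes of fusion and resorption.

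On mm10 (GRCm38; GENCODE gene spans, all protein-coding) the effectors lie at chr3:95499256-95509362 on the plus strand (Ctsk) and, on the minus strand, at chr9:22126727-22135711 (Acp5), chr2:165393760-165400405 (Ocstamp) and chr4:19876841-19922605 (Atp6v0d2). Tnfrsf11a lies at chr1:105780718-105847981 on the plus strand. On the minus strand, Nfatc1 lies at chr18:80606205-80713071, Tnfsf11 at chr14:78277445-78308043, Tnfrsf11b at chr15:54250619-54278484 and Csf1 at chr3:107741048-107760469. Counts cover whole genes, so exons and isoforms are not separated.

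The libraries held 2905264 counts for the dTF-cKO, 2678457 for the cKO and 3634819 for the control, and the upper limit set by a count of 0 (3 counts) was 1.07, 1.06 and 0.839 CPM in the same order. Their make-up differed. The 15 osteoblast markers took 0.542% of dTF-cKO counts, 2.53% of cKO counts and 12.02% of control counts, and the 14 epidermis markers took 1.41%, 2.51% and 0.0163%. The 13 skeletal muscle markers took 0.00124%, 0.0339% and 0.195%. Ctnnb1, which encodes beta-catenin, stood at 442, 745 and 1026 CPM in the dTF-cKO, cKO and control; whole-gene counts do not separate its alleles. Of Y-linked genes, Uty, Kdm5d, Eif2s3y and Ddx3y together had 444, 362 and 0 counts, and Xist had 2, 0 and 1233 counts, so sex-linked expression and genotype differed together and cannot be told apart. The part of these differences in make-up in the results below was not tested. In libraries that mix cell types, fewer cells of a type and less RNA per cell cannot be told apart either.

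The promoters of the effectors are shown because Ctsk and Acp5 are the textbook targets of NFATc1, PU.1 and MITF, and because they were the most abundant effectors in every library. RefSeq promoter windows (GRCm38.p6, 250 bases before to 50 after a transcript start) were found for 5 of the 9 genes, 7 windows in all. Ctsk had 1 window on chromosome 3, chr3:95498960-95499259 on the plus strand. Acp5 had 3 on chromosome 9, all on the minus strand, at chr9:22135697-22135996, chr9:22131816-22132115 and chr9:22130549-22130848, numbered from the most upstream start. Each is printed in the direction of transcription. Capitals mark the NFAT core GGAAA, the PU.1 core GAGGAAG and the M-box TCATGTG bound by MITF, each searched on both strands; GAGGAAG does not contain GGAAA, though neighbouring matches can share bases.
Ctsk: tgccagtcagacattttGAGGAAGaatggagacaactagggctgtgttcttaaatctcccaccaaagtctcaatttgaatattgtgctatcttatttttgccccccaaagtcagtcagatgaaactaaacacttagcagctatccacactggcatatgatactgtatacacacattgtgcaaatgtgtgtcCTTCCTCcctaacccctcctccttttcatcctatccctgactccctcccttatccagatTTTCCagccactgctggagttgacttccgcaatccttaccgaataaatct
Acp5 start 1: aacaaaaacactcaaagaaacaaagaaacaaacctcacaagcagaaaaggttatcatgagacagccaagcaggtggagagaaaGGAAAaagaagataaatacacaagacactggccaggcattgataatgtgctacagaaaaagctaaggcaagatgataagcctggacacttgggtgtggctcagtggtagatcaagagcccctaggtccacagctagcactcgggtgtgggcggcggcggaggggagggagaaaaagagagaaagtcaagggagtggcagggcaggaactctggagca
Acp5 start 2: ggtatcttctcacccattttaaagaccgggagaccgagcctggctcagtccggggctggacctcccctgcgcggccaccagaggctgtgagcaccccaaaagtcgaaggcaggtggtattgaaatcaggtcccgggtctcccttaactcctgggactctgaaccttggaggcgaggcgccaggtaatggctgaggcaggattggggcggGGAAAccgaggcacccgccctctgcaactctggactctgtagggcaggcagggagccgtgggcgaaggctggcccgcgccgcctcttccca
Acp5 start 3: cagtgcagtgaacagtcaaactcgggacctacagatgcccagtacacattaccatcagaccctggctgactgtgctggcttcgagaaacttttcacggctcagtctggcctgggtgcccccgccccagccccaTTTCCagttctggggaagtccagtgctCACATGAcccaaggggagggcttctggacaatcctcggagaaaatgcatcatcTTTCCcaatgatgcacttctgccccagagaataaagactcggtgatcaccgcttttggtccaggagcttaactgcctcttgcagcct

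The Ctsk window held GGAAA at 1 place and GAGGAAG at 2 places. The Acp5 windows held GGAAA at 1, 1 and 2 places, and Acp5 start 3 also held the M-box. The other 3 windows, those of Tnfrsf11a, Tnfsf11 and Csf1, held GGAAA at 0, 1 and 3 places and neither of the other motifs. None of the 7 held the AP-1 site TGANTCA or the TCF/LEF site CTTTGAT. Among 32841 promoter windows of the same length, 61.4% held GGAAA, 13.6% GAGGAAG, 3.77% TCATGTG, 7.81% TGANTCA and 3.73% CTTTGAT. The NFAT core is therefore common in any such window, and a match is a description of letters, not a site of binding.

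**Figure D1:**
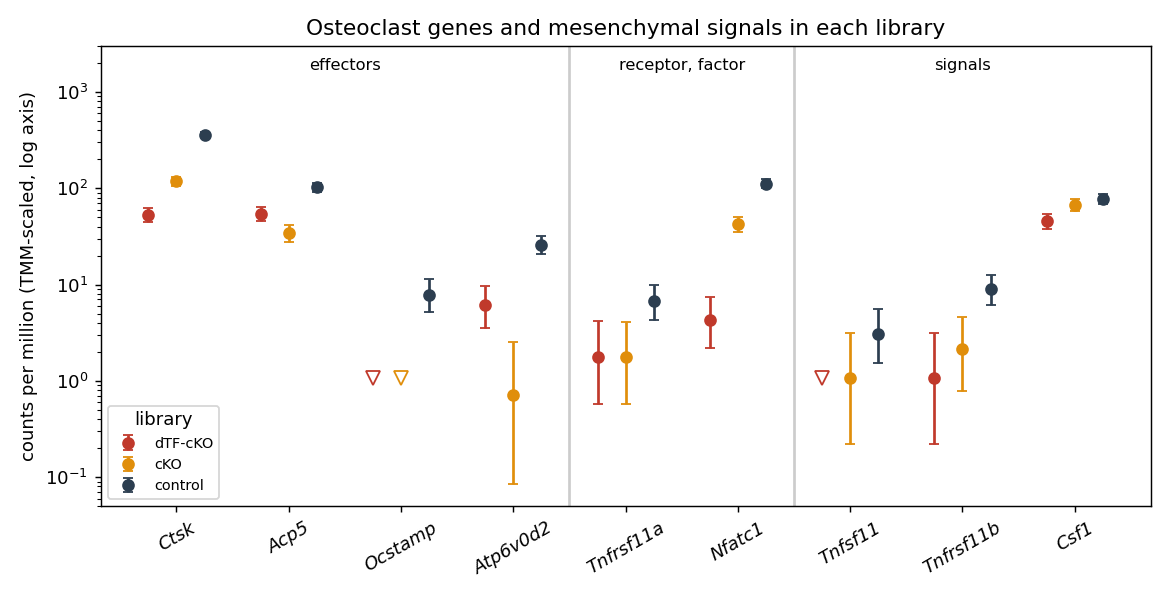
Level of each of the 9 genes in each library, in TMM-scaled CPM on a log axis; bars are exact 95% Poisson intervals, and open triangles mark libraries with 0 counts at the level of 3 counts. All 9 genes stood lower in both Cre-carrying libraries than the control, at ratios between 0.0275 for Atp6v0d2 and 0.86 for Csf1 in the cKO where both had counts, with Ocstamp at 0 counts in both.

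The effectors that dissolve and digest bone were lower in both Cre-carrying libraries than the control. Ctsk encodes cathepsin K, the protease that degrades type I collagen in the resorption pit, and is also expressed by some fibroblasts and periosteal progenitors. It had 147 counts (52.5 CPM) in the dTF-cKO, 335 counts (119 CPM) in the cKO and 1286 counts (360 CPM) in the control. Ctsk was thus highest in the control and lowest in the dTF-cKO, with intervals that do not overlap. The difference from the control was 6.85-fold in the dTF-cKO (5.77 to 8.18) and 3.04-fold in the cKO (2.69 to 3.43). It was 2.37-fold in the dTF-cKO with dermal and endothelial markers set equal, and 5.96-fold in the cKO with macrophage markers set equal. Here and below, dermal and endothelial markers were set equal in their median log2 CPM, and macrophage markers in their summed counts. Single markers could still differ. Acp5 encodes tartrate-resistant acid phosphatase, the histochemical marker of osteoclasts that macrophages also make at lower levels. It had 151 counts (54.0 CPM) in the dTF-cKO, 97 counts (34.3 CPM) in the cKO and 365 counts (102 CPM) in the control. Acp5 differed from Ctsk in its order, since the cKO was the lowest library. It was 1.89-fold lower than the control in the dTF-cKO (1.56 to 2.30) and 2.98-fold lower in the cKO (2.37 to 3.76). In the dTF-cKO the direction for Acp5 depended on scaling: with the dermal and endothelial markers set equal to the control it was 1.52-fold higher. An exon of 6530413G14Rik on the opposite strand shares 137 bases with Acp5, and the strand setting of the counting is not given, so reads there cannot be assigned.

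The effectors most restricted to osteoclasts had few counts. Atp6v0d2 encodes the d2 subunit of the vacuolar proton pump, which osteoclasts use for fusion and acid secretion. It had 17 counts (6.07 CPM) in the dTF-cKO, 2 counts (0.707 CPM) in the cKO and 92 counts (25.7 CPM) in the control. The cKO was the lowest library for Atp6v0d2, as for Acp5. Atp6v0d2 was 4.24-fold lower in the dTF-cKO than the control (2.51 to 7.58), and the ratio of the cKO to the control was 0.0275 (0.00328 to 0.102). Ocstamp encodes a membrane protein required for the fusion of precursors into multinucleated cells. It had 0 counts in the dTF-cKO, 0 counts in the cKO and 28 counts (7.83 CPM) in the control. Against 3 counts per library, Ocstamp was at least 7.31-fold lower in the dTF-cKO, and the bound for the cKO was 7.38-fold. These bounds take the 28 control counts as exact; the exact intervals, which do not, begin at 5.56-fold and 5.62-fold.

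The receptor and the factor of the precursor showed separate patterns. Tnfrsf11a, which encodes RANK, had 5 counts (1.79 CPM) in the dTF-cKO, 5 counts (1.77 CPM) in the cKO and 24 counts (6.71 CPM) in the control. Both Cre-carrying libraries were lower, by 3.76-fold in the dTF-cKO (1.41 to 12.6) and 3.80-fold in the cKO (1.42 to 12.7). In the dTF-cKO Tnfrsf11a was 1.30-fold lower with dermal and endothelial markers set equal. Nfatc1, on chromosome 18, encodes the master transcription factor of osteoclast differentiation and is also expressed in endothelial cells and in progenitors of bone and hair. It had 12 counts (4.29 CPM) in the dTF-cKO, 120 counts (42.4 CPM) in the cKO and 400 counts (112 CPM) in the control. The 3 Nfatc1 intervals did not overlap, and the dTF-cKO stood far below the other libraries. Nfatc1 was 26.1-fold lower in the dTF-cKO than the control (14.8 to 50.9) and 2.64-fold lower in the cKO (2.14 to 3.26). Nfatc1 was 9.05-fold lower in the dTF-cKO with dermal and endothelial markers set equal, and 5.17-fold lower in the cKO with macrophage markers set equal. Endothelial markers were also counted: of 12 measured, 7 were at least 2-fold lower and 0 higher in the dTF-cKO, and 0 were lower and 1 higher in the cKO. Over all measured genes 20.9% were lower and 19.5% higher in the dTF-cKO, and 6.78% and 9.66% in the cKO. Summed, the endothelial markers reached 320, 1508 and 1013 CPM in the dTF-cKO, cKO and control, with none at 0 in any library. Their part in the Nfatc1 difference was not tested.

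The mesenchymal signals divided into a pair near the detection limit and an abundant one. Tnfsf11, which encodes RANKL, had 0 counts in the dTF-cKO, 3 counts (1.06 CPM) in the cKO and 11 counts (3.08 CPM) in the control. It was at least 2.87-fold lower in the dTF-cKO against 3 counts, with the 11 control counts taken as exact; the exact interval begins at 1.96-fold. The cKO to control ratio of 0.345 (0.0618 to 1.31) does not separate those libraries at this depth. Tnfrsf11b, which encodes osteoprotegerin, had 3 counts (1.07 CPM) in the dTF-cKO, 6 counts (2.12 CPM) in the cKO and 32 counts (8.95 CPM) in the control. Its ratio to the control was 0.120 in the dTF-cKO (0.0235 to 0.383) and 0.237 in the cKO (0.0811 to 0.575). Osteoprotegerin transcripts were thus highest in the control, and the Cre-carrying libraries were not separated from each other. Csf1, which encodes the survival factor of the macrophage lineage, had 128 counts (45.7 CPM) in the dTF-cKO, 189 counts (66.9 CPM) in the cKO and 278 counts (77.8 CPM) in the control. The 3 Csf1 levels lay closer together than those of any other of the 9 genes. Csf1 was 1.70-fold lower in the dTF-cKO than the control (1.37 to 2.11); the 1.16-fold difference of the cKO had an interval that includes 1 (0.963 to 1.41). With the dermal and endothelial markers set equal, Csf1 was 1.70-fold higher in the dTF-cKO, and with the macrophage markers set equal it was 2.28-fold lower in the cKO.

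The ratio of Tnfsf11 to Tnfrsf11b, often read as the balance of drive and brake, needs no scaling between libraries. It was 0 to 3 counts in the dTF-cKO, 3 to 6 counts in the cKO (ratio 0.50, 0.0809 to 2.34) and 11 to 32 counts in the control (ratio 0.344, 0.156 to 0.70). Per kb of exon the ratios were 0.63 in the cKO and 0.433 in the control. The cKO ratio over the control ratio was 1.45, with an interval from 0.20 to 8.27, and in the dTF-cKO the interval ran from 0 to 7.93. A change of this balance was not detectable at this depth.

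Within a library, levels were compared between genes per kb of exon. Ctsk was first in every library, at 34.7 CPM per kb in the dTF-cKO, 78.4 in the cKO and 238 in the control, and Acp5 was second, at 26.6, 16.9 and 50.3 CPM per kb. In the control Nfatc1 (15.0 CPM per kb) and Csf1 (14.7) followed and were not separated by their counting intervals. In the dTF-cKO Csf1 followed Acp5 at 8.66 CPM per kb, and Nfatc1 lay below Atp6v0d2 at 0.574. The other genes lay at or below 9.48 CPM per kb in all 3 libraries, down to 0 for Ocstamp and Tnfsf11.

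Counting genes past a 2-fold difference, 3 of the 5 measured genes (Ctsk, Atp6v0d2 and Nfatc1) were lower in the dTF-cKO than the control and 0 were higher. Over all 12127 measured genes, 20.9% were lower and 19.5% higher by that rule in that comparison. In the cKO 4 of the 5 (the same genes and Acp5) were lower than the control and 0 higher, where 6.78% of all measured genes were lower and 9.66% higher. The median log2 CPM difference of the 5 was -1.97 in the dTF-cKO and -1.56 in the cKO, beside 0.06 and 0.06 over all measured genes. Atp6v0d2 reached the measured level through the control, the library in which it was highest, so these counts give no support of their own. Atp6v0d2 lost its place in the dTF-cKO with dermal and endothelial markers set equal, at 1.47-fold, which left 2 of the 5 lower and a median of -0.54. Under that scaling 828 of all 12127 measured genes were lower and 8246 higher in the dTF-cKO, with a median of 1.55. With macrophage markers set equal, Csf1 joined the others in the cKO, which made 5 of the 5 lower. Under that scaling 5014 of all 12127 measured genes were lower and 578 higher in the cKO, with a median of -0.89. The comparisons share the control library, and their values are given side by side only. With TMM scaling, the counting interval of the ratio lay below 1 for 9 of the 9 genes in the dTF-cKO. In the cKO it did for 7 of the 9, the exceptions being Tnfsf11 and Csf1. The share of all measured genes with such an interval is not given here, so these counts are a description only. With dermal and endothelial markers set equal, Acp5 and Csf1 were higher in the dTF-cKO than the control.

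**Figure D2:**
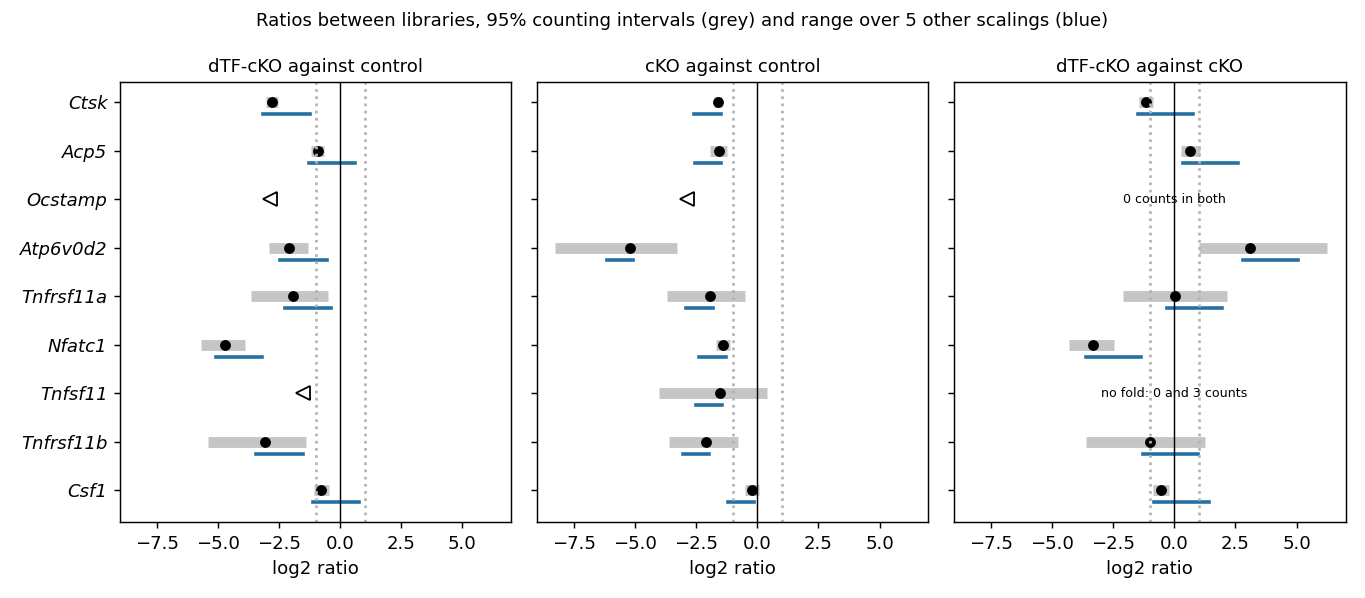
Log2 ratio of scaled counts for each gene in the 3 comparisons, with the 95% counting interval (grey band), the range over the 5 other scalings (blue line) and a dotted line at each 2-fold difference; open arrowheads are bounds for libraries with 0 counts. In the comparison with the control, Acp5 and Csf1 crossed 0 under another scaling in the dTF-cKO, and none of the 9 genes did in the cKO.

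The Cre-carrying libraries were then set against each other. Of the 5 measured genes, 2 were at least 2-fold lower in the dTF-cKO than the cKO and 1 was higher, where 20.5% of all measured genes were lower and 14.5% higher. Nfatc1 was 9.90-fold lower (5.46 to 19.7) and Ctsk 2.26-fold lower (1.85 to 2.76) in the dTF-cKO. Atp6v0d2 was higher in the dTF-cKO, with a ratio of 8.59 (2.04 to 76.6) that rests on 17 and 2 counts. Acp5 was also higher there, at a ratio of 1.57 (1.21 to 2.05). Csf1 was 1.46-fold lower (1.16 to 1.84). Tnfrsf11a, with 5 counts in each, had a ratio of 1.01 (0.232 to 4.39), and Tnfrsf11b one of 0.505 (0.0817 to 2.36). Setting the macrophage markers equal gave Ctsk a dTF-cKO to cKO ratio of 1.04, and setting the dermal and endothelial markers equal gave 1.72, so its direction between these libraries depended on the scaling. The same held for Csf1, with ratios of 1.61 and 2.65 under those scalings, and for Tnfrsf11b, with ratios of 1.19 and 1.96.

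Shares among the effectors need no scaling. Ctsk made up 46.7% of the 315 effector counts in the dTF-cKO (exact binomial interval 41.1% to 52.3%), 77.2% of 434 in the cKO (72.9% to 81.1%) and 72.6% of 1771 in the control (70.5% to 74.7%). Acp5 made up 47.9% (42.3% to 53.6%), 22.4% (18.5% to 26.6%) and 20.6% (18.7% to 22.6%). The dTF-cKO therefore held about as many Acp5 as Ctsk counts, while the cKO had Ctsk and Acp5 shares whose intervals overlapped those of the control. Atp6v0d2 took 5.40% in the dTF-cKO (3.17% to 8.50%), 0.461% in the cKO (0.0559% to 1.65%) and 5.19% in the control (4.21% to 6.33%). Ocstamp took 1.58% in the control, and 3 counts, the limit set for a count of 0, would be 0.952% in the dTF-cKO and 0.691% in the cKO. The exact interval of the dTF-cKO, up to 1.16%, overlapped that of the control (1.05% to 2.28%). The cKO had 0.0206 Atp6v0d2 counts per Acp5 count, against 0.252 in the control. For the factor Nfatc1, the dTF-cKO had 0.0795 counts per Acp5 count, against 1.10 in the control; these ratios were chosen after the values were seen.

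Macrophages share the origin of osteoclasts, and their 18 marker genes gave another internal yardstick. The markers summed to 395, 929 and 474 CPM in the dTF-cKO, cKO and control, and none was at 0 in any library. In the cKO 6 of the 18 were at least 2-fold higher than the control and 0 lower, with a median log2 difference of 0.73; in the dTF-cKO 3 were higher and 6 lower, with a median of -0.25, or 1.24 with dermal and endothelial markers set equal. Over all measured genes 6.78% were lower and 9.66% higher in the cKO, and 20.9% and 19.5% in the dTF-cKO. The dTF-cKO median of all measured genes was 1.55 with dermal and endothelial markers set equal. F13a1, a transglutaminase of tissue macrophages, had 76 counts in the dTF-cKO, 674 in the cKO and 242 in the control. The 4 effectors summed to 0.285 counts per macrophage marker count in the dTF-cKO (0.25 to 0.323), 0.165 in the cKO (0.149 to 0.183) and 1.05 in the control (0.978 to 1.12). By this measure the effectors were 3.67-fold lower than the control in the dTF-cKO (3.18 to 4.25) and 6.33-fold lower in the cKO (5.60 to 7.17). The cKO was the lower of the Cre-carrying libraries by this measure, and the dTF-cKO by Ctsk CPM. Without Ctsk the ratios were 0.152, 0.0377 and 0.286, which were 1.89-fold and 7.60-fold lower than the control. Of the macrophage markers, Csf1r, the receptor for CSF1, had 69 counts in the dTF-cKO, 301 in the cKO and 373 in the control; its ratio to the control was 0.236 (0.18 to 0.306) in the dTF-cKO and 1.02 (0.874 to 1.19) in the cKO. Cd68 and Cd14 were among the 3 that were higher in the dTF-cKO, with 231 and 73 counts, against 45 and 4 in the cKO and 83 and 6 in the control; they were chosen after their values were seen. Cd14 reached the measured level through the dTF-cKO, where it was highest, so its place among the higher genes gives no support. Cd163 reached it through the cKO, at 13.1 CPM against 0.357 in the dTF-cKO and 3.36 in the control. Its place in these counts gives no support either.

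**Figure D3:**
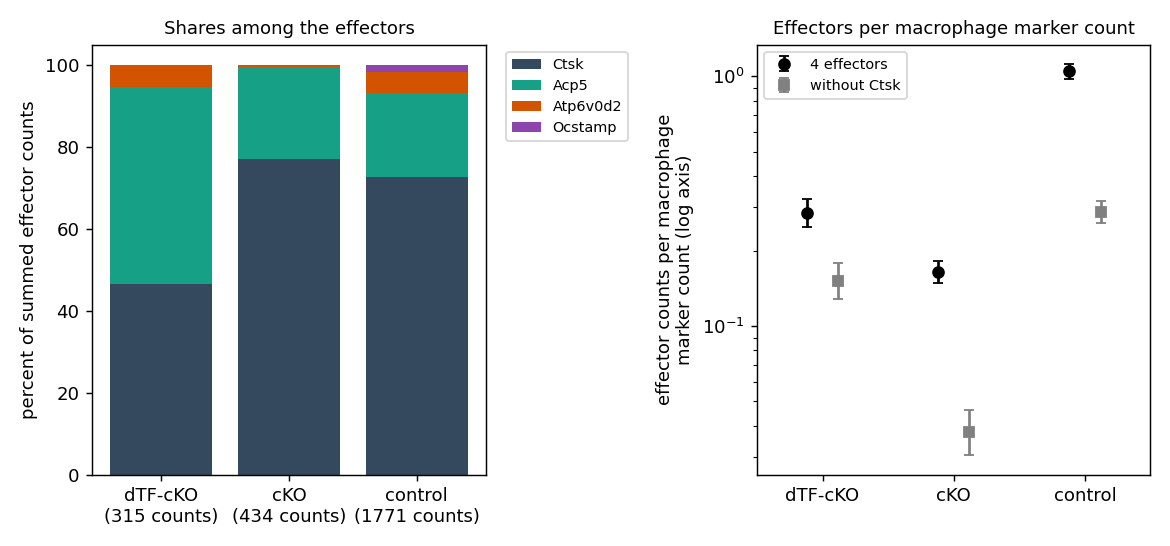
Left, percent of the summed counts of the effectors taken by each gene in each library; right, summed effector counts per macrophage marker count on a log axis, for the 4 effectors and without Ctsk, with 95% counting intervals. Acp5 took 47.9% of effector counts in the dTF-cKO, and effector counts per macrophage marker count were lowest in the cKO at 0.165.

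Other genes of fusion and resorption were sparser or shared with other cells. Of 15 genes on that list 11 were measured. In the dTF-cKO 5 were at least 2-fold lower than the control and 0 higher, beside 20.9% and 19.5% of all measured genes. In the cKO 2 were lower and 0 higher, beside 6.78% and 9.66% of all measured genes. The medians were -0.46 in the dTF-cKO and -0.56 in the cKO. With dermal and endothelial markers set equal the dTF-cKO median was 0.96, beside 1.55 over all measured genes. Mmp9, a gelatinase of osteoclasts and neutrophils, had 73 counts in the dTF-cKO, 123 in the cKO and 1488 in the control. Its ratio to the control was 0.0627 in the dTF-cKO and 0.105 in the cKO, a larger difference than that of Ctsk in both. Snx10, a sorting nexin needed for resorption, had 10, 14 and 64 counts. It reached the measured level through the control, where it was highest, so its place among the lower genes gives no support. Itgb3, the integrin chain that anchors osteoclasts to bone, had 19, 68 and 124 counts, and Sh3pxd2a, a podosome scaffold present in many cells, had 573, 1109 and 2434. Of the same list, Dcstamp, Oscar, Calcr and Siglec15, looked up after the values were seen, were below the measured level. Dcstamp, which like Ocstamp is needed for fusion, had 1 count in the dTF-cKO, 1 in the cKO and 22 in the control, and Oscar, a co-stimulatory receptor, had 0, 0 and 13. Tcirg1, Clcn7 and Ostm1, the genes of acid secretion whose loss causes osteopetrosis, are also used by lysosomes of other cells; looked up after the values were seen, Tcirg1 had 211 counts in the dTF-cKO, 117 in the cKO and 261 in the control (75.4, 41.4 and 73.0 CPM), and Clcn7 137, 143 and 141 counts.

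The relatives of the effectors had medians on the other side of 0. Of 17 measured subunits of the vacuolar proton pump other than Atp6v0d2, 0 were lower and 7 at least 2-fold higher in the dTF-cKO than the control (median log2 difference 0.86), and 0 were lower or higher in the cKO (median 0.25). Over all measured genes 20.9% were lower and 19.5% higher in the dTF-cKO, and 6.78% and 9.66% in the cKO. Atp6v1a, a catalytic subunit, had 810 counts in the dTF-cKO, 335 in the cKO and 304 in the control. Of 10 measured cathepsins other than Ctsk, 5 were higher and 1 lower in the dTF-cKO (median 1.07), and 0 were higher or lower in the cKO (median 0.16). Under all 6 scalings both families kept a median above 0 in the dTF-cKO, while in the cKO it was -0.70 for the pump and -0.80 for the cathepsins with macrophage markers set equal, and -0.17 and -0.26 with dermal and endothelial markers set equal. The median of all measured genes moved with the scaling too. It was 1.55 in the dTF-cKO and -0.36 in the cKO with dermal and endothelial markers set equal. With macrophage markers set equal it was 0.31 and -0.89. Ctsl had 1209, 380 and 463 counts and Ctsh 395, 106 and 111. Among the other NFAT factors, Nfatc4 had 60 counts in the dTF-cKO, 190 in the cKO and 537 in the control, Nfatc2 had 6, 40 and 65, and Nfat5, the member that responds to osmotic stress, had 330, 416 and 334.

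Genes that carry the RANK and CSF1 receptor signals were counted next. Of 32 measured, 7 were at least 2-fold lower and 7 higher in the dTF-cKO than the control (median log2 difference 0.37), shares near the 20.9% and 19.5% of all measured genes, and 1 was lower and 5 higher in the cKO (median 0.15, or -0.73 with macrophage markers and -0.26 with dermal and endothelial markers set equal). Over all measured genes 6.78% were lower and 9.66% higher in the cKO. In the dTF-cKO 0 of the 32 were lower and 23 higher with dermal and endothelial markers set equal (median 1.88). Under that scaling 828 of all 12127 measured genes were lower and 8246 higher in the dTF-cKO (median 1.55). Fos and Fosl1 encode AP-1 subunits. Fos had 657 counts in the dTF-cKO, 247 in the cKO and 45 in the control, and Fosl1 had 93, 0 and 1 in the same order. Fosl1 reached the measured level through the dTF-cKO, where it was highest, so its place among the higher genes gives no support. Tec, a kinase downstream of RANK, had 84, 51 and 18 counts. Spi1, which encodes PU.1 and was looked up after the values were seen, had 11, 32 and 65 counts. Of 10 measured inhibitors of osteoclast formation, 2 were lower and 2 higher in the dTF-cKO, and 0 lower and 2 higher in the cKO. These counts became 0 lower and 7 higher in the dTF-cKO with dermal and endothelial markers set equal. With macrophage markers set equal they became 3 lower and 0 higher in the cKO. Under the macrophage scaling 5014 of all 12127 measured genes were lower and 578 higher in the cKO (median -0.89). Nfkbia, the inhibitor of NF-kB that NF-kB itself induces, had 1201, 186 and 133 counts. Bcl6, a repressor of NFATc1 target genes, had 122, 94 and 48 counts. Fos, Bcl6 and Nfkbia are expressed in many cell types, and their source in these libraries was not tested.

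Other mesenchymal signals that bear on osteoclasts were counted as well. Of 17 measured, 10 were at least 2-fold lower and 1 higher in the dTF-cKO than the control (median log2 difference -1.61), and 8 were lower and 1 higher in the cKO (median -0.80). The higher gene was Lif in the dTF-cKO and Wnt16 in the cKO. Each reached the measured level through the library where it was highest, so its place as the higher gene gives no support. Over all measured genes 20.9% were lower and 19.5% higher in the dTF-cKO, and 6.78% and 9.66% in the cKO. In the dTF-cKO with dermal and endothelial markers set equal 4 of the 17 were lower and 3 higher (median -0.09). Under that scaling 828 of all 12127 measured genes were lower and 8246 higher (median 1.55). Pth1r, the receptor through which parathyroid hormone raises Tnfsf11 in osteoblasts, had 50 counts in the dTF-cKO, 276 in the cKO and 944 in the control. Mmp13, a collagenase of osteoblasts and hypertrophic chondrocytes, had 2, 38 and 376 counts, Sema3b, a semaphorin, 6, 51 and 319, and Angptl2, a secreted angiopoietin-like protein, 33, 208 and 774. Osteoblast markers were lower too: of 15, 14 were at least 2-fold lower in the dTF-cKO (median -5.70) and 15 in the cKO (median -2.32), with summed levels of 5630, 23968 and 122211 CPM in the dTF-cKO, cKO and control and none at 0. Pth1r and Spp1 belong both to the osteoblast markers and to the mesenchymal signals counted above. The 12 suture and bone progenitor markers summed to 290, 863 and 1781 CPM, with Dlx6 at 0 in the dTF-cKO. The medians of the osteoblast and progenitor lists stayed below 0 under all 6 scalings. The part of these cells in the differences of Tnfsf11, Tnfrsf11b and Ctsk was not tested.

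**Figure D4:**
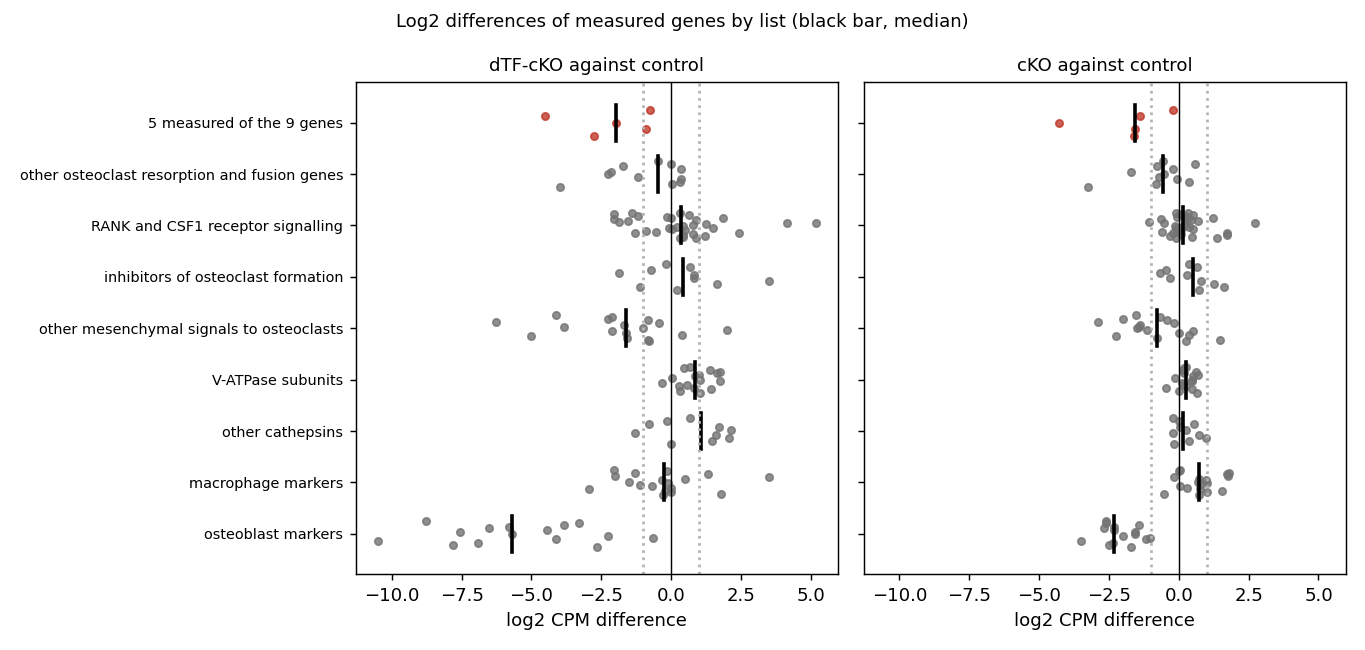
Log2 CPM difference from the control for each measured gene of 9 sets, in the dTF-cKO (left) and the cKO (right); the black bar is the median and the dotted lines mark 2-fold. The osteoblast markers had medians of -5.70 in the dTF-cKO and -2.32 in the cKO, the macrophage markers -0.25 and 0.73, and the 5 measured genes of the axis -1.97 and -1.56.

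The genes nearest to Ctsk in their pair of log2 differences from the control, among 4000 genes with a mean of at least 50 CPM, were Runx2, Serpinf1, Dkk3 and Ptgis, at distances of 0.17, 0.19, 0.24 and 0.28 on the log2 scale. Runx2, the transcription factor required for osteoblasts, had 62 counts in the dTF-cKO, 121 in the cKO and 512 in the control. Of the candidates, 3 of the 4000 genes lay within 0.25 of Ctsk. For Csf1, 143 genes lay within that distance, and the nearest were Ndst1, Alg2, Marcksl1 and Trio. Likeness over 3 libraries is a description with no test. Cells other than macrophages also varied: the mast cell genes Cma1 and Cpa3, which led the granulocyte list, had 30 and 8 counts in the dTF-cKO, 492 and 487 in the cKO and 127 and 93 in the control. All other genes of that list, looked up after the values were seen, were below the measured level. Among them Elane had 0 counts in all 3 libraries. S100a9 had 17, 18 and 4 counts in the dTF-cKO, cKO and control, and S100a8 had 0, 9 and 4. The part of these cells in the Mmp9 difference was not tested.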

How the data were processed

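Libraries were made from polyA RNA using the Ion Total RNA-Seq chemistry, per the labels' protocols; the submitters' processing notes name mm10. The values deposited by the authors are raw read counts per gene. Which aligner, counter, annotation and strand setting were used is not given in the sources used here. Counts were scaled with TMM factors (0.963, 1.06 and 0.984 for the dTF-cKO, cKO and control) in edgeR 4.0.16 under R 4.3.3, with a prior count of 2 for log2 CPM. Folds divide scaled counts, leaving out the prior count, and carry exact conditional 95% intervals; since PCR reads can copy one molecule, these intervals and the floors hold for counting error alone. A gene was measured at a mean of at least 5 CPM and counted as different at a log2 difference of 1 in size. That mean includes the library where a gene is highest, through which low genes can pass, so counts of genes per list are a description only. Genes were named by a rule: up to 4 per pathway list by size of difference, the 2 most abundant per marker list, and the 4 nearest to Ctsk and to Csf1; others are said to be looked up afterwards. The values of 1 gene that the rule names are not reported here. Positions and exon lengths came from GENCODE vM21 (GRCm38). Adgre1 and Cnmd were matched under older symbols. The 9 genes and all lists were chosen with earlier results of these data known. Symbols turned into dates (27, at most 0.18% of counts) were kept in the totals. Intervals were checked on simulated data. Alternatives were 5 scalings, among them DESeq2 1.42.0 size factors, 2 prior counts, 2 floors and 3 size rules; the dermal and endothelial scaling was added after the data were seen.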

Additional observations from a re-analysis of the deposited data

Results flagged for a closer look

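A few genes went in opposite directions from the control in the Cre-carrying libraries, with counting intervals on opposite sides of 1; none of the 9 genes of the axis did. The difference between genotypes was not tested, since each had 1 library. The macrophage gene F13a1 had a ratio to the control of 0.401 in the dTF-cKO and 3.52 in the cKO. The mast cell genes Cma1 and Cpa3 had ratios of 0.302 and 0.11 in the dTF-cKO, and of 4.90 and 6.62 in the cKO. Col2a1, the main collagen of cartilage, had ratios of 0.489 in the dTF-cKO and 3.34 in the cKO. The endothelial genes Cdh5 and Eng had ratios of 0.145 and 0.268 in the dTF-cKO, and of 1.13 and 1.46 in the cKO. The opposite directions depended on scaling for most of these genes. With dermal and endothelial markers set equal, the dTF-cKO ratio was 1.16 for F13a1 and 1.41 for Col2a1, and the cKO ratio of Cdh5 was 0.838. With macrophage markers set equal, the cKO ratio was 0.574 for Cdh5 and 0.746 for Eng. Cma1 and Cpa3 kept opposite directions under both. These genes were searched for opposite directions after the data were seen.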

How the results depend on the processing

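No paired analysis was possible because each genotype had 1 library, and no library could be left out. Of the recomputed log2 differences of the 9 genes, 293 stayed within the counting interval of the reported value and 29 left it. Another 2, both of Ctsk, were past 2-fold as reported and changed sign. The 293 include every value recomputed with another floor or size rule. Those settings do not alter a log2 difference, so such values stayed by construction. Only another scaling or prior count could move a value, and the 293 therefore overstate how stable the differences were. Differences within 2-fold changed sign too, as given here and in the text above. The 9 genes kept a lower level than the control in the cKO under all 6 scalings, and in the dTF-cKO under all but the dermal and endothelial scaling, where Acp5 and Csf1 were higher. Between the dTF-cKO and the cKO, the log2 difference of Ctsk was 0.059 with macrophage markers set equal and 0.78 with dermal and endothelial markers set equal. Depth limits Ocstamp, Tnfsf11, Tnfrsf11a and Tnfrsf11b, and the spread between embryos is unknown; the cause of each change below was not tested.

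Of the 9 genes, those counted as different from the control in the dTF-cKO numbered 5 at 1.5-fold, 7 with no filter and 5 without the 20 most abundant genes. In the cKO they numbered 2 at 3-fold and 8 with no filter. All of these were lower. Without the 20 most abundant genes, 3395 of all 12127 measured genes were lower and 1602 higher in the dTF-cKO (median -0.29). The number of all genes lower there at 1.5-fold is not given here, so these counts are a description only. In the dTF-cKO against the cKO, 2 were higher at 1.5-fold, 1 was lower at 3-fold, 1 was lower and 3 higher under the dermal and endothelial scaling, 1 was lower and 2 higher under the macrophage scaling, and 0 were higher at a floor of 20 CPM. Effector counts per macrophage marker count were 0.152, 0.0377 and 0.286 in the dTF-cKO, cKO and control without Ctsk, and 0.439, 0.189 and 1.26 without Lyz2, Ctss and Cd68.

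Over all genes, those higher in the dTF-cKO than the control numbered 3791 at 1.5-fold, and 1586 were lower and 1255 higher at 3-fold. Under the dermal and endothelial scaling 828 were lower and 8246 higher; 1228 were lower at a floor of 20 CPM and 4619 with no filter. In the cKO against the control, 1602 were lower and 2195 higher at 1.5-fold, 382 and 692 at 3-fold, 1571 and 775 under the dermal and endothelial scaling, 5014 and 578 under the macrophage scaling, 325 and 675 at a floor of 20 CPM, and 2293 and 2149 with no filter. In the dTF-cKO against the cKO, 3237 were higher at 1.5-fold, 1122 were higher without the 20 most abundant genes, 1516 were lower and 710 higher at 3-fold, 547 and 9327 under the dermal and endothelial scaling, 962 and 6949 under the macrophage scaling, and 4536 and 3073 with no filter; 1169 were lower at a floor of 20 CPM. The median log2 difference of all genes moved to 1.55 in the dTF-cKO and -0.36 in the cKO under the dermal and endothelial scaling, and to 0.31 and -0.89 under the macrophage scaling. Measured genes were those of the TMM scaling throughout.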
